A study of Homo sapiens with 8 samples.

Results

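The expression of 10 genes that encode amino acid transporters of the plasma membrane was followed in Kyse510 cells, an established line of human esophageal squamous cell carcinoma (ESCC), whose LSD1 or G9a was blocked by small molecules or by hairpins. LSD1 is a histone demethylase and G9a is a histone H3K9 methyltransferase. The genes were taken by name as SLC7A11, SLC7A5, SLC7A1, SLC3A2, SLC38A1, SLC38A2, SLC1A4, SLC1A5, SLC6A9 and SLC43A1, and all 10 are among the 26360 genes listed in both expression tables. RNA-seq covered 8 libraries, 1 for each condition, so no difference has a replicate check. In the inhibitor arm, parental Kyse510 cells received DMSO vehicle, the LSD1 inhibitor SP2509 at 7 µM, the G9a inhibitor UNC0642 at 7 µM, or both inhibitors, for 2 days, and the doses within the combination are not stated separately. In the genetic arm, Kyse510 cells carried a doxycycline-inducible hairpin against LSD1 (shLSD1) or against G9a (shG9a), had passed 14 days of puromycin selection, and were kept without doxycycline (-Dox) or given doxycycline for 2 days (+Dox). Each hairpin line is a stable line made with 1 hairpin, its control is the same line without doxycycline, and a nonsilencing hairpin with doxycycline was not analysed here.

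Cells take up amino acids through several transporter classes that differ in substrate and in driving force. SLC3A2 (4F2hc, CD98) is a heavy chain that carries light chains to the cell surface, among them SLC7A5 (LAT1), an exchanger of leucine and other large neutral amino acids, and SLC7A11 (xCT), which imports cystine in exchange for glutamate. SLC7A1 (CAT1) imports arginine and lysine. SLC1A5 (ASCT2) and SLC1A4 (ASCT1) are sodium-dependent exchangers of neutral amino acids such as serine and alanine. SLC38A1 (SNAT1) and SLC38A2 (SNAT2) import glutamine and alanine together with sodium. SLC6A9 (GLYT1) imports glycine, and SLC43A1 (LAT3) moves branched-chain amino acids by facilitated diffusion. Many of these genes are known targets of ATF4, the transcription factor of the amino acid and unfolded protein responses, and SLC7A11 is also a known target of NRF2.

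The libraries held 15662035 to 17889466 reads, as estimated from the steps of the FPKM values (fragments scaled by gene length and by library size). KDM1A, which encodes LSD1, was at 26.0 FPKM in the shLSD1 line -Dox and at 6.29 +Dox. EHMT2, which encodes G9a, was at 7.85 FPKM in the shG9a line -Dox and at 4.76 +Dox, a smaller reduction, and at 11.1 with vehicle and 5.38 with both inhibitors. Of 10 squamous or basal epithelial markers, 8 were at 1 FPKM or more in every library, the exceptions being KRT6A and SOX2, and KRT5 ranged from 74.6 to 734 FPKM. The summed level of these markers was 1318 FPKM with vehicle and 5415 with SP2509, 1904 with UNC0642 and 1888 with both inhibitors. It was 2514 and 1005 in the shLSD1 line -Dox and +Dox, and 2368 and 1634 in the shG9a line. KRT17 alone ranged from 158 to 3716 FPKM. Its highest value is above every sum but that with SP2509, so KRT17 makes up most of the SP2509 sum. Leukocyte markers summed to at most 0.338 FPKM, and 4 of 6 fibroblast markers stayed under 1 FPKM, with a summed level of 3.23 to 6.96 FPKM. Among 3 endothelial markers PECAM1 stayed under 1 FPKM and CDH5 reached 14.0 FPKM, with a summed level of 3.56 to 14.5 FPKM. The part of these marker levels in the results below was not tested. In bulk RNA, fewer cells of one state and less RNA per cell cannot be told apart.

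The core TGATGNAA, which ATF4 and C/EBP factors are known to bind as a composite element, was searched on both strands of RefSeq promoters (GRCh38.p14), each of 250 bases before and 50 bases after a transcription start. Promoters were matched for 9 of the 10 genes, all but SLC7A11, and several genes have more than 1. The core was found in 5 of 16 promoters of these genes, against 3.62% of 35116 promoters of all genes. Of the 5 genes with the core, 4 (all but SLC38A1) were lower both with UNC0642 and in the shG9a line. Such a pattern was common, since 7 of the 9 genes tested in both comparisons (all but SLC43A1) had it. A link between the core and these differences was not tested. Of the other genes among those 7, SLC7A5 and SLC6A9 had no match, and SLC7A11 had no promoter to search. Each stretch with the core is printed from 5′ to 3′ on the strand of the gene. The match is in capitals, with up to 10 bases on each side. In SLC3A2 and SLC1A4 the capitals read as the reverse complement of the core:
SLC7A1: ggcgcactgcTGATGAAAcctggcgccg
SLC3A2: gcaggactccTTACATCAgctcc
SLC38A1: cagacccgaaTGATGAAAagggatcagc
SLC1A4: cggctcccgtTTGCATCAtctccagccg
SLC1A5: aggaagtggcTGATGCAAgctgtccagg

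The printed stretch of SLC7A1 lies at chr13:29595664-29595691 on the minus strand and that of SLC3A2 at chr11:62881726-62881748 on the plus strand. The stretch of SLC38A1 lies at chr12:46266503-46266530 on the minus strand, that of SLC1A4 at chr2:64989382-64989409 on the plus strand, and that of SLC1A5 at chr19:46784894-46784921 on the minus strand. The match begins 97 bases before the RefSeq start in SLC1A5, 7 bases before it in SLC1A4 and 4 bases before it in SLC38A1, and 7 bases past it in SLC7A1 and 37 bases past it in SLC3A2. The RefSeq start equals the outer end of the gene in the deposited annotation for SLC7A1 and lies inside the gene by 922 bases in SLC1A4, 3501 in SLC38A1, 3780 in SLC1A5 and 25597 in SLC3A2. The antioxidant response element core TGACNNNGC, which does not overlap these matches, was found in 4 of the 16 promoters (SLC7A5, SLC7A1, SLC3A2 and SLC1A5) against 13.3% of all promoters. The E-box CACGTG was found in 3 (SLC7A5, SLC1A5 and SLC43A1) against 7.26%. A match describes the letters of a window and does not show that a factor was bound.

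The genes covered a wide range of levels, which FPKM values allow to be set side by side since they are scaled by gene length. With vehicle, SLC7A5 was the highest at 539 FPKM (95% counting interval 534 to 545), followed by SLC3A2 at 173, SLC38A2 at 140, SLC1A5 at 101 and SLC38A1 at 76.3 FPKM. SLC7A11 (48.9 FPKM), SLC7A1 (43.8), SLC6A9 (17.5) and SLC1A4 (15.3) came next, and SLC43A1 was the lowest at 0.759 FPKM (0.547 to 1.03). No neighbours in this order had overlapping counting intervals with vehicle. Across the other libraries, the intervals of neighbours overlapped for SLC6A9 and SLC7A11 with both inhibitors and in the shG9a line -Dox, and for SLC6A9 and SLC1A4 in the shLSD1 line -Dox. SLC7A5 was the highest of the 10 in 7 libraries, and SLC38A2 was the highest with SP2509. All intervals given here cover counting error only, since there is no replicate of any condition.

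The uninduced hairpin lines were not at the level of the vehicle cells. SLC7A11 was at 8.46 FPKM in the shLSD1 line -Dox and 12.8 FPKM in the shG9a line -Dox, against 48.9 FPKM with vehicle. SLC7A1, SLC38A1 and SLC38A2 were 1.86 to 2.35 times higher with vehicle than in these lines, whereas SLC3A2 and SLC1A5 were lower with vehicle. The tables of the 2 arms were made separately, so these differences between arms carry no test. Every ratio of 1 library to another below stays within a table, while ranges over all libraries span both arms. Between the uninduced lines, the FPKM ratio of shG9a over shLSD1 was 1.52 for SLC7A11 (1.42 to 1.62) and 0.817 to 1.14 for the other 9 genes.

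**Figure D1:**
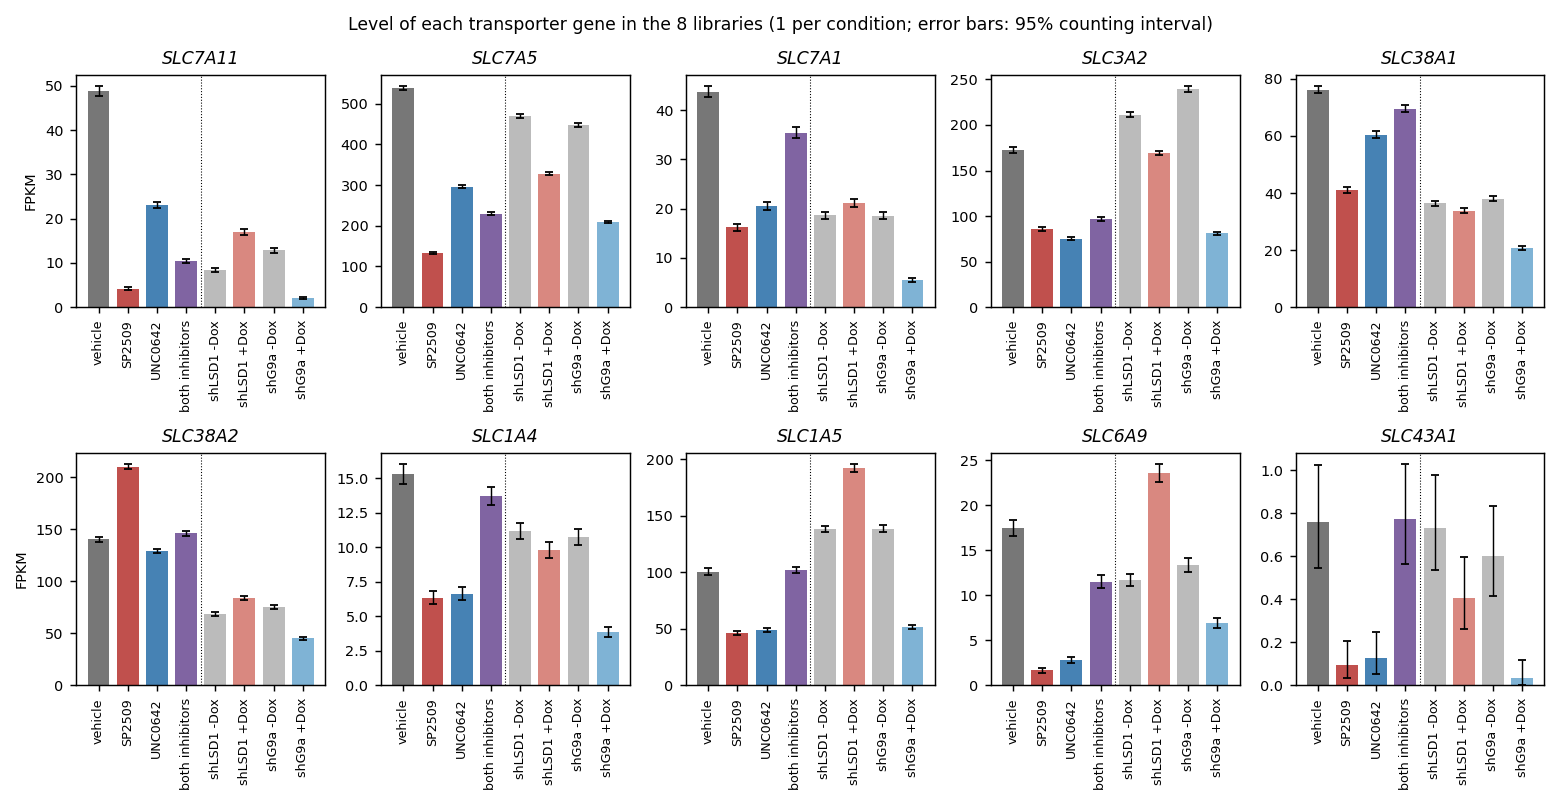
Level in FPKM (linear axes from 0, 1 panel per gene) of the 10 transporter genes in the 8 libraries, with 95% counting intervals as error bars and the inhibitor and hairpin arms on the left and right of the dotted line. SLC7A11 is at 48.9 FPKM with vehicle and at 4.20 with SP2509, and all 10 genes are lower in the shG9a line +Dox than -Dox.

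Each treated library was compared with its own control as the log2 ratio of (FPKM + 1). A gene was called higher or lower when this ratio reached 1.3-fold and either library of the comparison reached 1 FPKM. SLC43A1 stayed under 1 FPKM in all 8 libraries and could not be called, while the other 9 genes were at 1.69 FPKM or more in every library. With SP2509, 8 of these 9 genes were lower and SLC38A2 was higher, whereas 39.9% of all 13342 genes tested were lower and 21.0% were higher. With UNC0642, 7 were lower and 0 were higher, against 16.9% and 18.2% of 13244 genes. With both inhibitors, 4 were lower and 0 were higher, against 31.7% and 31.4% of 13907 genes. For shLSD1, 3 were higher and 1 was lower, against 24.8% and 12.3% of 12970 genes. For shG9a, all 9 were lower, against 17.6% of 13080 genes that were lower and 32.9% that were higher. The shares with SP2509 and with both inhibitors thus stand beside a high background.

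On the same (FPKM + 1) scale, a difference of at least 2-fold was seen in fewer genes, all of them lower. The count was 6 with SP2509 (background 13.0% lower and 8.25% higher), 6 with UNC0642 (3.12% and 4.79%) and 2 with both inhibitors, SLC7A11 and SLC7A5 (9.57% and 13.0%). In the hairpin lines it was 0 for shLSD1 (3.27% and 3.36%), where SLC7A11 and SLC6A9 were each at 201% of the control in plain FPKM and fell short of 2-fold higher through the pseudocount, and 6 for shG9a (6.02% and 5.13%). With SP2509 these were the callable genes other than SLC3A2, SLC38A1 and SLC38A2, with UNC0642 those other than SLC7A5, SLC38A1 and SLC38A2, and for shG9a those other than SLC6A9, SLC38A1 and SLC38A2. SLC3A2 with SP2509 was at 49.8% of vehicle in plain FPKM and likewise fell short of 2-fold lower through the pseudocount. The 3 inhibitor comparisons share the vehicle library.

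The median log2 ratio over all 10 genes was -1.12 with SP2509, -1.03 with UNC0642, -0.22 with both inhibitors, 0.04 in the shLSD1 line and -1.18 in the shG9a line. Over all genes tested it was -0.21, -0.01, -0.02, 0.13 and 0.18, respectively. Genes that reached 5 FPKM on both sides of the comparison had a median of 0.11 in the shLSD1 line and 0.14 in the shG9a line. With the ratios centred on that median, 17.0% of genes were higher and 16.6% were lower in the shLSD1 line, and 22.5% were higher and 22.5% were lower in the shG9a line. Centred values are given below where they alter a call.

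**Figure D2:**
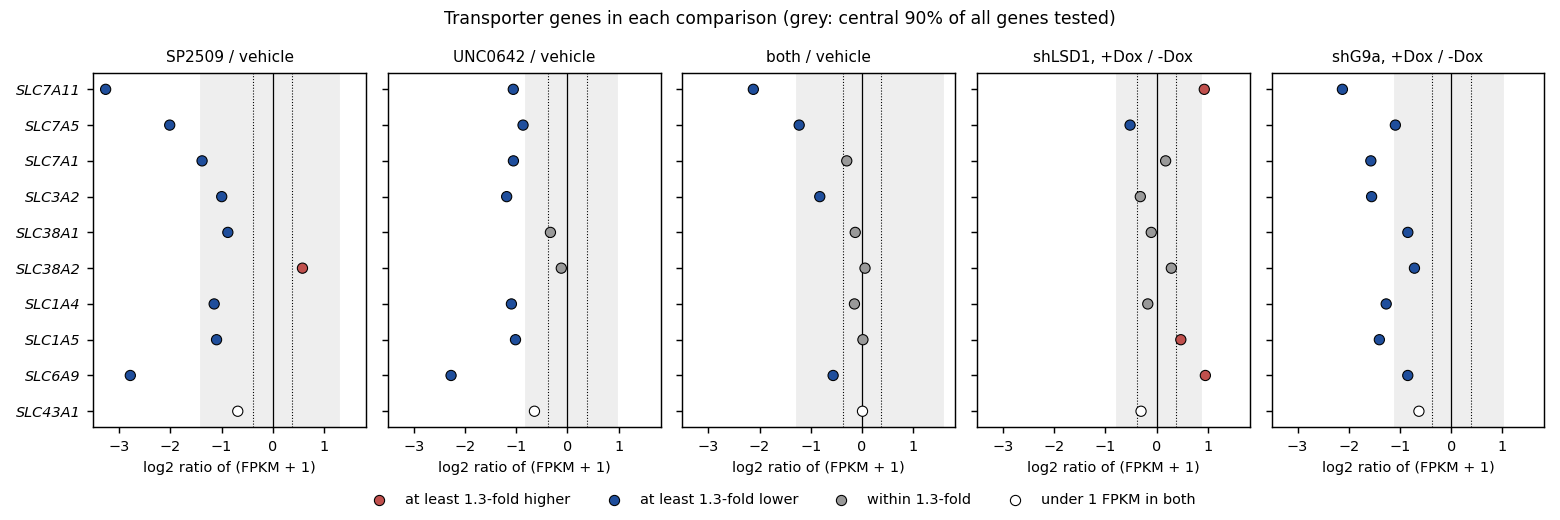
Log2 ratio of (FPKM + 1) of each gene in the 5 comparisons, with grey bands for the central 90% of all genes tested, dotted lines at 1.3-fold, and colours for the call. With UNC0642, 7 callable genes lie to the left of the lower 1.3-fold line, and in the shG9a line all 9 do, beside the uncalled SLC43A1 (open circle), while in the shLSD1 line the genes spread to both sides of 0.

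SLC7A11 (ENSG00000151012, chromosome 4 from 138164097 to 138242349, minus strand), the cystine importer, had the widest range of the 9 callable genes relative to its level. It was at 48.9 FPKM in vehicle cells, 4.20 after SP2509, 23.0 after UNC0642 and 10.5 after the combination, and at 8.46 and 17.0 FPKM in the shLSD1 line and 12.8 and 2.17 FPKM in the shG9a line, each -Dox and +Dox. Only the shLSD1 line +Dox was above its control. The log2 ratio was -3.26 with SP2509, and 14 of 13342 genes had a lower one. In plain FPKM the SP2509 library was at 8.58% of vehicle (7.94 to 9.26%), UNC0642 at 47.0% (45.2 to 48.9%) and both inhibitors at 21.4% (20.3 to 22.6%). With doxycycline SLC7A11 was at 201% (189 to 215%) in the shLSD1 line and at 16.9% (15.1 to 18.9%) in the shG9a line. On the log2 (FPKM + 1) scale SLC7A11 had the largest reduction of the 10 with SP2509, with both inhibitors and in the shG9a line, while in plain FPKM SLC43A1 was lower in the shG9a line. Its antisense neighbour SLC7A11-AS1, whose reads could not be told apart if counting ignored strand, was at no more than 1.42 FPKM.

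SLC7A5 (ENSG00000103257, chromosome 16 from 87830023 to 87869488, minus strand), the leucine exchanger, was lower in every treated library. It was at 539 FPKM in vehicle cells, 133 after SP2509, 296 after UNC0642 and 230 after the combination, at 470 and 328 in the shLSD1 line -Dox and +Dox, and at 448 and 210 in the shG9a line. These correspond to 24.6% of vehicle with SP2509 (24.1 to 25.2%), 54.8% with UNC0642 (53.9 to 55.7%) and 42.6% with both (41.9 to 43.4%). With doxycycline it stood at 69.8% in the shLSD1 line (68.7 to 70.8%) and 46.8% in the shG9a line (46.0 to 47.7%). SLC7A5 was the only one of the 10 genes called lower in the shLSD1 line, at a log2 ratio of -0.52, and after centring SLC3A2 joined it. The related pseudogene SLC7A5P1, which could share reads with it, was at 2.19 to 5.96 FPKM, and MIR6775, which overlaps it on the same strand, at no more than 8.91 FPKM.

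SLC3A2 (ENSG00000168003, chromosome 11 from 62856102 to 62888875, plus strand), the heavy chain, was at 173 FPKM in vehicle cells, 86.0 after SP2509, 75.3 after UNC0642 and 97.0 after the combination. In the shLSD1 line it was at 211 and 169 FPKM and in the shG9a line at 240 and 81.0 FPKM, -Dox and +Dox. All 3 inhibitor libraries were lower than vehicle, and they spanned a narrower range than for either light chain. In percent of vehicle it was at 49.8 (48.5 to 51.2) with SP2509, 43.6 (42.4 to 44.9) with UNC0642 and 56.2 (54.7 to 57.8) with both inhibitors. The log2 ratio was -1.56 in the shG9a line and -0.32 in the shLSD1 line, where the value was -0.43 after centring and then past 1.3-fold. The noncoding gene SNHG1, a neighbour of SLC3A2, was at 62.5 FPKM in vehicle cells, 10.7 after SP2509, 20.9 after UNC0642 and 29.2 after the combination. In the shLSD1 line SNHG1 was at 26.6 and 34.3 FPKM, opposite in direction to SLC3A2, with both genes within 1.3-fold before centring. In the shG9a line SNHG1 was at 26.4 and 18.5 FPKM.

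SLC7A1 (ENSG00000139514, chromosome 13 from 29509410 to 29595688, minus strand), the arginine and lysine importer, was at 43.8 FPKM in vehicle cells, 16.2 after SP2509, 20.6 after UNC0642 and 35.4 after the combination. It was at 18.6 and 21.2 FPKM in the shLSD1 line and at 18.6 and 5.60 FPKM in the shG9a line, -Dox and +Dox. This transcript was lower with each inhibitor alone than with the combination. In percent of vehicle the values were 37.0 (35.2 to 38.9) with SP2509, 47.0 (44.9 to 49.2) with UNC0642 and 80.9 (77.8 to 84.2) with both. In the shG9a line, SLC7A1 was at 30.1% of its control (27.7 to 32.7%), and in the shLSD1 line it was within 1.3-fold at 114% (108 to 120%).

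SLC1A5 (ENSG00000105281, chromosome 19 from 46774883 to 46788594, minus strand) and SLC1A4 (ENSG00000115902, chromosome 2 from 64988477 to 65023865, plus strand), the sodium-dependent neutral exchangers, had closely similar values relative to vehicle. SLC1A5 was at 101 FPKM in vehicle cells, 46.5 after SP2509, 49.4 after UNC0642 and 102 after the combination, and at 138 and 192 in the shLSD1 line and 138 and 51.7 in the shG9a line, -Dox and +Dox. SLC1A4 was at 15.3 FPKM in vehicle cells, 6.37 after SP2509, 6.64 after UNC0642 and 13.7 after the combination, and at 11.2 and 9.81 in the shLSD1 line and 10.7 and 3.87 in the shG9a line. For each gene the single inhibitors gave low values and the combination a value near vehicle. SLC1A5 was at 46.2% of vehicle with SP2509 (44.1 to 48.4%), 49.0% with UNC0642 (46.9 to 51.3%) and 101% with both (97.6 to 105%). The corresponding values of SLC1A4 were 41.7% (38.2 to 45.4%), 43.4% (39.9 to 47.2%) and 89.7% (83.7 to 96.1%). The pair parted in the shLSD1 line, where SLC1A5 was at 139% (135 to 143%) and was called higher, and SLC1A4 was at 87.7% (81.1 to 94.9%) and was not called. The log2 ratio of SLC1A5 there was 0.47, and 0.36 after centring, which is just short of 1.3-fold.

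SLC38A1 (ENSG00000111371, from 46183063 to 46270017) and SLC38A2 (ENSG00000134294, from 46358189 to 46372867) are neighbours on the minus strand of chromosome 12, separated by 88.2 kb. SLC38A1 was at 76.3 FPKM in vehicle cells, 41.1 after SP2509, 60.4 after UNC0642 and 69.5 after the combination, and at 36.4 and 33.8 in the shLSD1 line and 38.1 and 20.7 in the shG9a line, -Dox and +Dox. SLC38A2 was at 140 FPKM in vehicle cells, 210 after SP2509, 129 after UNC0642 and 146 after the combination, and at 68.6 and 84.0 in the shLSD1 line and 75.2 and 45.3 in the shG9a line. With SP2509 these neighbours differed from vehicle in opposite directions, SLC38A1 being at 53.8% (52.3 to 55.4%) and SLC38A2 at 150% (147 to 153%). The FPKM ratio of SLC38A2 over SLC38A1 was 5.12 with SP2509 and 1.84 to 2.48 in the other 7 libraries. They were the genes with the smallest reductions among the 9 with UNC0642, at log2 ratios of -0.33 and -0.12, and neither was called there. In the shG9a line both were called lower, at 54.4% (52.2 to 56.7%) and 60.3% (58.2 to 62.4%) of the control.

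SLC6A9 (ENSG00000196517, chromosome 1 from 43991500 to 44031467, minus strand), the glycine importer, was at 17.5 FPKM in vehicle cells, 1.69 after SP2509, 2.83 after UNC0642 and 11.5 after the combination. It was at 11.7 and 23.6 FPKM in the shLSD1 line and at 13.3 and 6.96 FPKM in the shG9a line, -Dox and +Dox. With each inhibitor alone this gene lay near the bottom of all genes tested. The SP2509 library was at 9.65% of vehicle (8.12 to 11.4%) with a log2 ratio of -2.78, and 35 of 13342 genes had a lower one. The UNC0642 library was at 16.2% (14.1 to 18.5%) with a log2 ratio of -2.27, and 20 of 13244 genes had a lower one. With both inhibitors together it was at 65.8% (60.6 to 71.4%). With doxycycline it was at 201% (187 to 217%) in the shLSD1 line and at 52.2% (47.3 to 57.6%) in the shG9a line. CCDC24, which overlaps SLC6A9 on the opposite strand, reached 12.6 FPKM, so reads counted without strand could be shared.

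SLC43A1 (ENSG00000149150, chromosome 11 from 57484534 to 57515786, minus strand), the facilitated carrier of branched-chain amino acids, was covered thinly. The vehicle library held 42 reads, against 6 with SP2509, 8 with UNC0642 and 46 with both inhibitors, and the counts were 46 and 25 in the shLSD1 line and 35 and 2 in the shG9a line, -Dox and +Dox. The order of the inhibitor libraries was that of SLC1A5, with low single inhibitors and a combination near vehicle. Relative to vehicle, SP2509 was at 12.6% (4.37 to 29.7%), UNC0642 at 16.7% (6.76 to 36.0%) and both at 102% (65.4 to 158%). The shG9a line +Dox was at 5.46% of its control (0.636 to 21.2%).

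**Figure D3:**
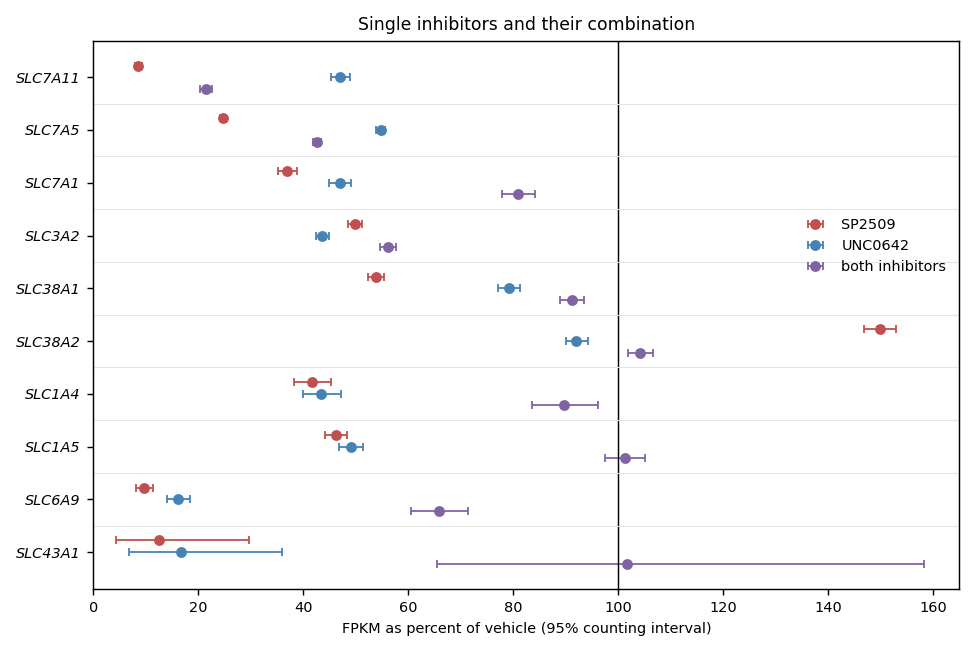
FPKM of each gene in the 3 inhibitor libraries as percent of the vehicle library (linear axis, 95% counting intervals). The combination lies to the right of both single inhibitors for 7 genes, among them SLC1A5 at 101% against 46.2% and 49.0%, and lies between them for SLC7A11, SLC7A5 and SLC38A2, the last being at 150% with SP2509 alone and at 104% with both.

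The combination was also compared directly with each single inhibitor. Relative to SP2509 alone, 7 of the 9 callable genes were higher with both inhibitors and SLC38A2 was lower, against 41.8% of 13658 genes that were higher and 24.8% that were lower. Relative to UNC0642 alone, 4 genes were higher (SLC7A1, SLC1A4, SLC1A5 and SLC6A9) and SLC7A11 was lower, against 27.7% and 27.1% of 13637 genes. The widest step was that of SLC6A9, which with both inhibitors was at 6.82 times its SP2509 level (5.75 to 8.13) and 4.07 times its UNC0642 level (3.55 to 4.68). SLC7A11 stood at 2.49 times its SP2509 level (2.28 to 2.72) and 0.455 times its UNC0642 level (0.430 to 0.482). SLC3A2 differed from neither single inhibitor by 1.3-fold on the (FPKM + 1) scale. Relative to SP2509, genes above 5 FPKM had a median shift of 0.12, and after centring on it the calls of the 9 genes did not change, against 36.8% higher and 29.5% lower. After centring on a shift of 0.03 relative to UNC0642, SLC7A5 was also lower, at a log2 ratio of -0.39.

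The log2 ratio of the combination was set against the sum of the 2 single ratios, which it would equal under additivity on the log2 scale. It exceeded that sum in 9 of the 10 genes. The excess was 4.49 for SLC6A9, whose single ratios sum to -5.05 while the combination was at -0.56. It was 2.20 for SLC7A11, 2.14 for SLC7A1, 2.13 for SLC1A5 and 2.09 for SLC1A4. Smaller excesses of 1.08 to 1.65 were seen for SLC7A5, SLC3A2, SLC43A1 and SLC38A1, and for SLC38A2 the combination was 0.40 below the sum. The median excess over the 10 genes was 1.87, against 0.19 over 14801 genes, of which 16.9% had an excess of at least 1. The vehicle library enters all 3 ratios, which are therefore not independent. A log2 ratio of (FPKM + 1) also cannot fall below its value at 0 FPKM in the treated library. For SLC6A9 and SLC43A1 the sum of the single ratios lies below that floor. Part of their excess was therefore fixed in advance by the scale.

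**Figure D4:**
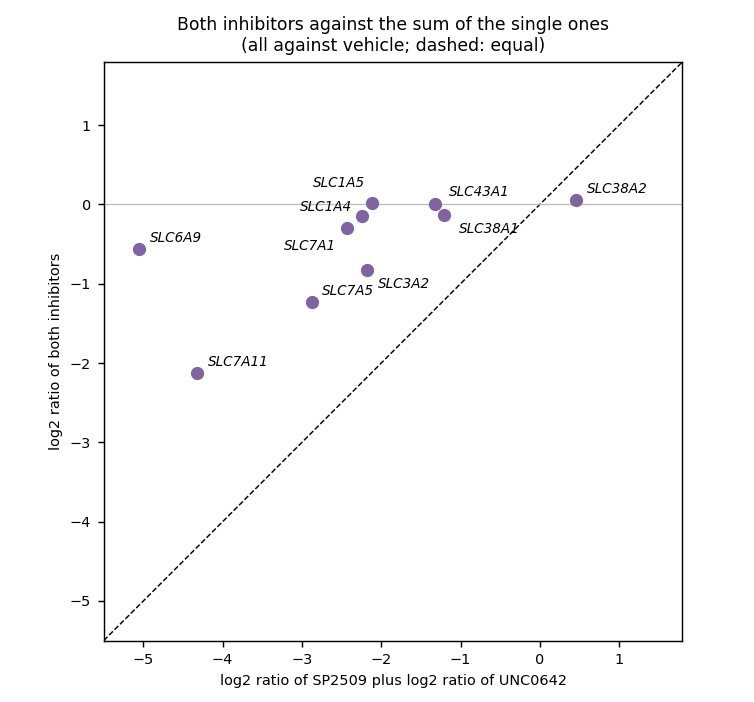
Log2 ratio of both inhibitors (vertical axis) against the sum of the log2 ratios of SP2509 and UNC0642 (horizontal axis) for each of the 10 genes, all against the same vehicle library, with a dashed line where they are equal. All genes but SLC38A2 lie above the line, and SLC6A9 lies farthest from it, with a sum of -5.05 and a combined ratio of -0.56. For SLC6A9 and SLC43A1 the sum is lower than any combined ratio could be on this scale.

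The inhibitor and the hairpin against the same enzyme were set side by side, since they share no library. For G9a, 7 of the 9 genes were lower both with UNC0642 and in the shG9a line, namely SLC7A11, SLC7A5, SLC7A1, SLC3A2, SLC1A4, SLC1A5 and SLC6A9, against 4.01% of 11906 genes. The size differed by gene, and SLC6A9 was at 16.2% of its control with UNC0642 and at 52.2% in the shG9a line, while SLC7A11 was at 47.0% and 16.9%. For LSD1, 1 of the 9 genes, SLC7A5, was lower with both SP2509 and the hairpin, against 2.07% of 11769 genes. SLC7A11, SLC1A5 and SLC6A9 were lower with SP2509 and higher in the shLSD1 line, a pattern held by 14.4% of genes. The same 3 were higher in the shLSD1 line and lower in the shG9a line with doxycycline, as were 1.78% of 12325 genes. Of the 9 genes, 8 were lower with SP2509 and all 9 in the shG9a line. The patterns that include shLSD1 therefore rest on the calls in that line. There 3 of 9 were higher, against 24.8% of 12970 genes, and 1 of 9 was lower, against 12.3%. SLC38A2 was 1.50 times its control with SP2509 and 1.22 times its control in the shLSD1 line, the latter within 1.3-fold.

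Other transporters of amino acids were read from a list of 33 genes, of which 29 are in both tables. With UNC0642, 17 of them passed the FPKM filter, and 6 were higher and 0 were lower, at a median log2 ratio of 0.22. SLC6A6, the taurine transporter, was at 8.76 FPKM with vehicle and 27.8 with UNC0642, and SLC1A1, a glutamate transporter, was at 0.511 and 1.50 FPKM. With SP2509, 2 of 17 were higher (SLC38A4 and SLC6A14) and 10 were lower, with SLC1A3, a glutamate transporter, at 8.62 and 2.55 FPKM. With both inhibitors, 12 of 19 were higher and 4 were lower, led by SLC6A6 at 40.6 FPKM, a log2 ratio of 2.09. SLC66A1, a lysosomal exporter of cationic amino acids, was at 5.11 FPKM with vehicle and 16.1 with both inhibitors. With shLSD1, 5 of 15 were higher and 1 was lower, and SLC6A14, a broad neutral and cationic amino acid importer, was at 0.486 and 6.19 FPKM. With shG9a, 7 of 15 were higher, led by SLC38A7 at 2.81 and 7.18 FPKM, and SLC6A6 was lower at 17.7 and 7.88 FPKM. Beside these counts, the shares over all genes were 18.2% higher and 16.9% lower with UNC0642, and 21.0% higher and 39.9% lower with SP2509. With both inhibitors they were 31.4% higher and 31.7% lower. For shLSD1 they were 24.8% higher and 12.3% lower, and for shG9a 32.9% higher and 17.6% lower. With vehicle, none of these other genes was above SLC6A6 at 8.76 FPKM. The 10 described above were at 15.3 FPKM or more there, except SLC43A1 at 0.759 FPKM. In treated libraries the levels of the 2 lists overlap, as for SLC6A9 at 1.69 FPKM and SLC6A6 at 10.2 FPKM with SP2509. With SP2509 the genes called higher were under 1 FPKM with vehicle. So were SLC1A1 and SLC38A4 with UNC0642, and these with SLC6A14 and SLC6A20 for both inhibitors. SLC6A14 was under 1 FPKM -Dox in each hairpin line. Such genes passed the filter only through the treated library and could not be called lower. In the other direction, SLC7A2 with SP2509 and with both inhibitors, and SLC43A2 with SP2509, passed only through vehicle. Whether the 2 lists differ was not tested.

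**Figure D5:**
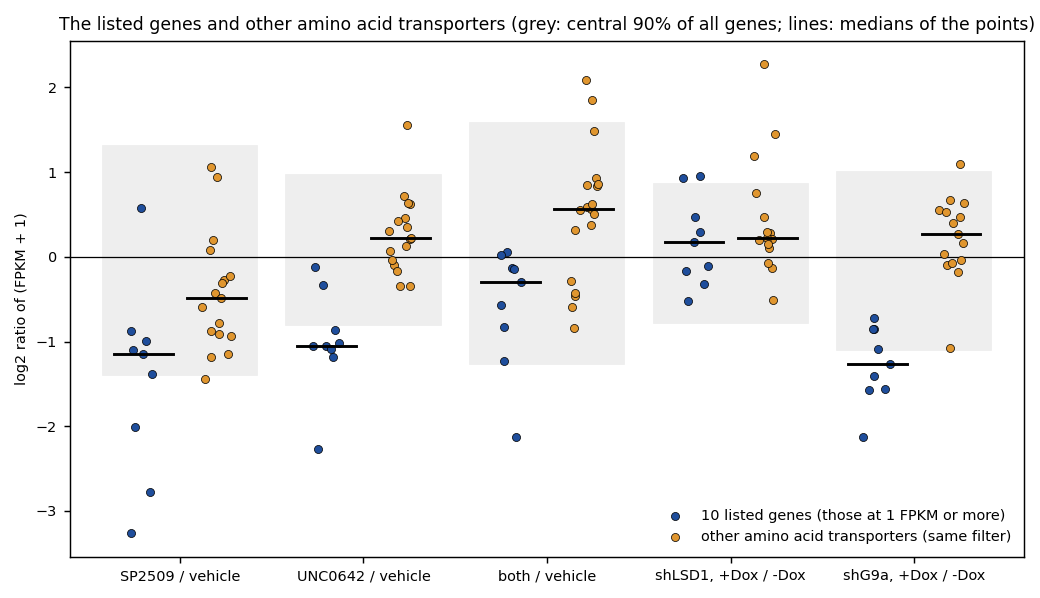
Log2 ratio of (FPKM + 1) in each comparison for the listed genes that passed the FPKM filter (blue, 9 in each) and for the other amino acid transporters that passed it (orange, 15 to 19), with grey boxes for the central 90% of all genes tested and lines at the median of the points. With UNC0642 and in the shG9a line the blue points lie below 0, at medians of -1.05 and -1.27, and the orange medians are 0.22 and 0.27. Some orange points are genes under 1 FPKM in the control, which could not be called lower.

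Transcription factors known to act on these genes were read in the same libraries. ATF4 was at 255 FPKM in vehicle cells, 210 after SP2509, 186 after UNC0642 and 360 after the combination, at 304 and 293 in the shLSD1 line and at 292 and 164 in the shG9a line, -Dox and +Dox. By the 1.3-fold rule it was lower with UNC0642 and in the shG9a line, higher with both inhibitors, and not called with SP2509 (log2 ratio -0.28) or in the shLSD1 line (-0.05). DDIT3 (CHOP) was at 70.6, 17.3, 5.70 and 22.6 FPKM in the vehicle, SP2509, UNC0642 and combination libraries, and stayed below vehicle in the combination. It was at 49.9 and 27.8 FPKM in the shLSD1 line and at 59.5 and 3.58 FPKM in the shG9a line, where its log2 ratio of -3.72 was the largest reduction of its 5 comparisons. MYC was at 137 FPKM with vehicle and 697 with SP2509, and at 153 and 182 with UNC0642 and both inhibitors. With shLSD1, MYC was at 219 and 105 FPKM, and in the shG9a line at 206 and 67.2 FPKM. NFE2L2, which encodes NRF2, was at 43.2 FPKM in vehicle cells, 53.9 after SP2509, 27.2 after UNC0642 and 24.2 after the combination. It was at 27.0 and 34.9 FPKM in the shLSD1 line and at 27.1 and 32.4 FPKM in the shG9a line, +Dox being above -Dox in each. The part of these factors in the transporter levels was not tested.

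For the 7 genes with a log2 ratio of at least 1 in size in at least 1 comparison, the genes most like them were sought among 6608 protein-coding genes by the root mean square (RMS) difference of the log2 ratios over the 5 comparisons, of which 3 share the vehicle library. MTHFD2, a mitochondrial folate enzyme, was nearest to SLC1A4 (RMS difference 0.13) and to SLC1A5 (0.22). CEBPG, a C/EBP family factor, was nearest to SLC7A1 (0.21), and SEC24D and MTHFD2 followed. The nearest to SLC3A2 was PLPP5 (0.19), then SEC24D (0.20) and the tyrosyl-tRNA synthetase gene YARS (0.28). Nearest to SLC7A5 were SLFN11 (0.29), TMED7 (0.30) and PYCR1 (0.34). The 2 genes with the widest ranges had no close neighbour, since AKR1C2 was 0.47 from SLC7A11 and TSC22D3 was 0.51 from SLC6A9.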

How the data were processed

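RNA-seq was analysed in 8 libraries of Kyse510 cells. The authors removed low-quality reads and adapters, mapped to GRCh38 (release 87) and deposited FPKM values in 2 tables made separately. The aligner, counter and strand setting are not given in the sources used here. Groups came from the sample labels.

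Library totals were recovered from FPKM steps of single-exon genes (lengths from GENCODE 44), where 100% of values were within 0.01 of whole reads. The reads of each of the 10 genes were taken at the smallest length that made all 8 values whole, which was 81.0 to 101% of the reference exon length. Gene coordinates are as deposited.

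Calls used a pseudocount of 1, a minimum of 1 FPKM in at least 1 of the 2 libraries and a fold of 1.3. With 1 library per condition, no test between conditions was possible. Exact 95% intervals (Poisson for levels, Clopper-Pearson for ratios, without pseudocount) cover counting error only. Calculations used Python 3.11.15, numpy 2.4.6, pandas 2.3.3 and scipy 1.17.1, and were tested on simulated data. The alternatives were a pseudocount of 0.1, no filter, a minimum of 5 FPKM, a fold of 2, centring, the counting interval, and a pooled uninduced control. Genes, lists, motifs and comparisons were chosen with earlier results of these data known. Named were all 10 genes, up to 3 other transporters per direction, fixed regulators, targets and copies, and the 3 nearest genes by pattern. Promoters are from RefSeq (GRCh38.p14).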

Additional observations from a re-analysis of the deposited data

Results flagged for a closer look

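With doxycycline, 3 of the transporter genes differed from their controls in opposite directions in the 2 hairpin lines, each by at least 1.3-fold, a pattern held by 1.78% of the 12325 genes tested in both lines. SLC7A11 had a log2 ratio of 0.93 in the shLSD1 line and -2.13 in the shG9a line. SLC6A9 had a log2 ratio of 0.95 in the shLSD1 line and -0.85 in the shG9a line, and SLC1A5 had 0.47 and -1.40, respectively. Each line has 1 library -Dox and 1 +Dox, so the difference between the lines was not tested. All 9 callable genes were lower in the shG9a line, so the pattern rests on the genes higher in the shLSD1 line. These were 3 of 9, against 24.8% of 12970 genes. After centring, SLC1A5 was no longer past 1.3-fold in the shLSD1 line, which left 2 of 9, against 17.0%.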

How the results depend on the processing

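No paired analysis was possible because each condition has 1 library, and no replicate could be left out. The counts of genes called were recomputed under 6 alternatives for the inhibitors and 7 for the hairpins. At a fold of at least 2, the number lower with both inhibitors was 2 (SLC7A11 and SLC7A5) in place of 4, the number higher with SP2509 was 0 in place of 1, and in the shLSD1 line 0 were higher in place of 3 and 0 were lower in place of 1. In the shLSD1 line, 2 genes were lower in place of 1 when the ratios were centred on the median and when the mean of both uninduced lines was the control (SLC3A2 was added in each case). The other counts stayed within 1.5 times the value reported, and no called ratio of a gene changed sign under any of these alternatives. Centring turned the ratios of SLC1A5 and SLC43A1 with both inhibitors from 0.02 and 0.01 to -0.02 and -0.03, which were not called. Depth limits SLC43A1, whose reads ranged from 2 to 46.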

Other observations

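The balance of heavy and light chains differed between libraries. The summed FPKM of light chain genes that pair with SLC3A2 (SLC7A5, SLC7A11, SLC7A6, SLC7A7 and SLC7A8, with SLC7A10 not listed) was 3.46 times that of SLC3A2 in vehicle cells, 1.68 times after SP2509, 4.40 times after UNC0642 and 2.67 times after the combination. In the shLSD1 line it was 2.29 and 2.07 times, and in the shG9a line 1.94 and 2.70 times, -Dox and +Dox. SLC7A5 made up most of the light chain sum in each library, and SP2509 and UNC0642 stand at opposite ends of this range.

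The 10 genes summed to 1155 FPKM in vehicle cells, 545 after SP2509, 663 after UNC0642 and 716 after the combination. In the shLSD1 line the sum was 975 and 879 FPKM, and in the shG9a line 996 and 427 FPKM, -Dox and +Dox. SLC7A5 and SLC3A2 together held 40.2 to 69.9% of the sum. The ratio of SLC7A5 over SLC7A11, light chains that share the heavy chain SLC3A2, was 11.0 in vehicle cells, 31.7 after SP2509, 12.8 after UNC0642 and 22.0 after the combination, and it was 55.6 and 19.3 in the shLSD1 line and 35.0 and 96.8 in the shG9a line.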
